A study of Sus scrofa with 16 samples.

Results

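Liver was compared with the tissue labelled uterine endothelium in the same 4 gilts, which are young female pigs. Of the 16 arrays in the study, 2 hybridised RNA of these 2 tissues against each other. In gilt 2 the liver RNA carried Cy3 and the uterine RNA Cy5, and in gilt 3 the dyes were the other way round. In gilts 1 and 4 the pair is linked only through the arrays that pair either tissue with skeletal muscle or brain stem. The results below describe the 175 genes that carry a symbol, which lie on 178 of the 20736 rows of the array.

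The study tested a pig array of 70-base oligonucleotides on 4 tissues of each gilt. The gilts were about 165 days old, and no treatment, genotype or breed is named in the labels. Total RNA was extracted with TRIzol, amplified from an oligo(dT) primer, labelled with Cy3 or Cy5 and hybridised in a loop of 4 arrays per gilt, so that loop and animal are the same. The labels do not describe how the uterine tissue was dissected, nor whether the name means vessel lining or the endometrium as a whole.

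The liver's main cell, the hepatocyte, secretes most proteins of the blood plasma, makes bile acids from cholesterol and, in pigs, oxidises urate. The uterus is a muscular wall around a lining of epithelium, glands, stroma, blood vessels and resident leukocytes, and responds to oestrogen, progesterone, prolactin and oxytocin. Endothelium is the layer of flat cells that lines blood vessels. In RNA from whole tissue, fewer cells of a type and less RNA per cell cannot be told apart.

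The deposited values are log ratios without spot intensities, so the signal over background is unknown and a dim probe cannot be told from a bright one. Their base was inferred to be 2. The sign was read as Cy5 over Cy3, which is likely but stated nowhere. The reading rests on known liver genes, such as CRP and UOX, coming out higher in liver, so the direction of those genes is not independent evidence. Array medians lay between -0.01 and 0.01, and array standard deviations between 0.52 and 1.00. Each loop was solved by least squares, which gives every gene a value in each tissue of each gilt, in log2 units around the average of all 4 tissues of that gilt. Below, a tissue value is this quantity, and a difference is the liver value minus the uterine value of the same gilt. No array compared different gilts, so tissue values do not show how the gilts differ in absolute level. Each SE comes from a fit to all 4 tissues, so it also holds the scatter of skeletal muscle and brain stem.

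Of the 175 genes, 35 were higher in liver than in uterine endothelium and 13 were lower at a limma adjusted p of at most 0.05, with p-values adjusted over all rows. Over all rows, 24.0% were called, 12.1% higher and 11.8% lower. The called share of the genes with a symbol was 27.4%, close to that background, while 20% of them were higher and 7.43% lower. A difference of at least 1 in size was called for 12 genes, beside 5.55% of all rows. Of these genes 9 were higher in liver and 3 lower, beside 3.08% and 2.47% of all rows. The 4 liver and the 4 uterine values did not overlap for 60 genes, or 34.3%, against 33.6% of all rows. Without gilt 3 the genes called numbered 26, and without gilt 2 they numbered 30.

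The 3 genes furthest above uterine endothelium in the livers, CRP, PROC and MBL2, encode secreted plasma proteins. Of 79 genes on a list of such proteins 5 were measured, and 4 of them were higher in liver, none was lower and 1 was not called. Their median difference was 2.28, beside -0.01 over all rows, of which 12.1% were called higher. This list too was drawn up with earlier results of these data known. The members called were CRP, PROC, MBL2 and FCN1.

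CRP encodes C-reactive protein, which is released into the blood during inflammation. Its tissue values were 2.08, 2.66, 2.46 and 2.69 in the livers of gilts 1 to 4, against -0.65, -0.74, -1.17 and -1.02 in their uterine endothelium. The tissues stood far apart in every gilt, with a difference of 3.37 ± 0.19 (SE, n = 4 gilts; 95% interval 2.95 to 3.79; limma adjusted p = 2.5e-07), or 10.3-fold on the inferred scale. PROC, the gene of the anticoagulant protein C, had tissue values of 1.85, 2.14, 2.30 and 1.98 in liver, against -0.61, -0.56, -1.03 and -0.82 in uterine endothelium. Its difference was 2.82 ± 0.17 (SE, n = 4; limma adjusted p = 3.4e-07), with no overlap between the tissues.

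MBL2 and FCN1 encode lectins of the complement system, a mannose-binding lectin and a ficolin, that recognise sugars on microbes. MBL2 had tissue values of 1.34, 1.40, 1.45 and 2.16 in liver, against -0.67, -0.39, -0.78 and -0.92 in uterine endothelium. Gilt 4 held both the highest liver value and the lowest uterine value, and the difference over the 4 gilts was 2.28 ± 0.19 (SE; limma adjusted p = 6.3e-06). FCN1 had tissue values of 1.01, 1.38, 1.21 and 1.41 in liver, against -0.38, -0.22, -0.81 and -0.46 in uterine endothelium. All 4 liver values lay above all 4 uterine values, with a difference of 1.72 ± 0.16 (SE; limma adjusted p = 1.4e-05). PGLYRP2, a peptidoglycan-recognition protein secreted by the human liver, was the member not called: its difference was 0.03, with a 95% interval of -0.18 to 0.25.

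Most measured genes on a list of liver metabolic enzymes were also higher in liver. Of its 80 genes 8 were measured, of which 6 were higher, none was lower and 2 were not called. The median difference was 0.86, and the share called higher over all rows was 12.1%. The list was drawn up with earlier results of these data known, and it holds GAL3ST2, which acts on glycans. The higher genes were UOX, CYP7A1, QDPR, GAL3ST2, GOT1 and ACADS. CYP8B1, which directs bile acid synthesis towards cholic acid, had a difference of 0.28 (95% interval -0.02 to 0.59), and VNN1, a pantetheinase, one of 0.02 (95% interval -0.35 to 0.40).

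UOX, urate oxidase, had tissue values of 1.62, 1.61, 1.78 and 1.70 in liver, against -0.54, -0.30, -0.63 and -0.42 in uterine endothelium. Relative to the mean of each gilt, the values lay close together within either tissue, and the difference was 2.15 ± 0.12 (SE, n = 4; limma adjusted p = 2.0e-07). CYP7A1, which catalyses the limiting step from cholesterol to bile acids, had values of 0.88, 0.67, 0.80 and 0.59 in liver, against -0.54, -0.20, -0.55 and -0.57 in uterine endothelium. Its difference was 1.20 ± 0.16 (SE; limma adjusted p = 0.00027), or 2.30-fold, and the tissues did not overlap.

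QDPR, which regenerates tetrahydrobiopterin for the hydroxylation of phenylalanine, had tissue values of 1.33, 1.41, 1.27 and 1.49 in liver, against 0.14, 0.64, 0.21 and 0.06 in uterine endothelium. Unlike the genes above, QDPR was above the gilt mean in both tissues in all 4 gilts. Its difference was 1.11 ± 0.16 (SE, n = 4; limma adjusted p = 0.00047). Each tissue was also set against the mean of skeletal muscle and brain stem, where 30.3% of all rows were called for liver and 35.1% for uterine endothelium in limma, in contrasts that share samples. On that measure QDPR stood at 2.20 in liver and 1.08 in uterine endothelium. CYP7A1 stood at 0.87 in liver and -0.33 in uterine endothelium on that measure, and UOX at 2.28 in liver and 0.13 in uterine endothelium.

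GAL3ST2, a sulfotransferase that acts on galactose of glycans, had tissue values of 0.60 to 0.81 in liver, against -0.59 to -0.01 in uterine endothelium. Gilt 2 had the smallest difference, 0.61, and the other 3 gilts had 1.17 to 1.32, for a mean of 1.07 ± 0.14 (SE; limma adjusted p = 0.00017). GOT1, the cytosolic aspartate aminotransferase, differed by 0.59, 0.42, 1.04 and 0.57 in gilts 1 to 4, with a mean of 0.66 ± 0.12 (SE; limma adjusted p = 0.0028). ACADS, a mitochondrial acyl-CoA dehydrogenase, differed by 0.67, 0.72, 0.19 and 0.32, so that gilts 1 and 2 lay above gilts 3 and 4. Its mean was 0.48 ± 0.13 (SE; limma adjusted p = 0.019), and its adjusted p was 0.103 without gilt 1 and 0.139 without gilt 2.

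**Figure D1:**
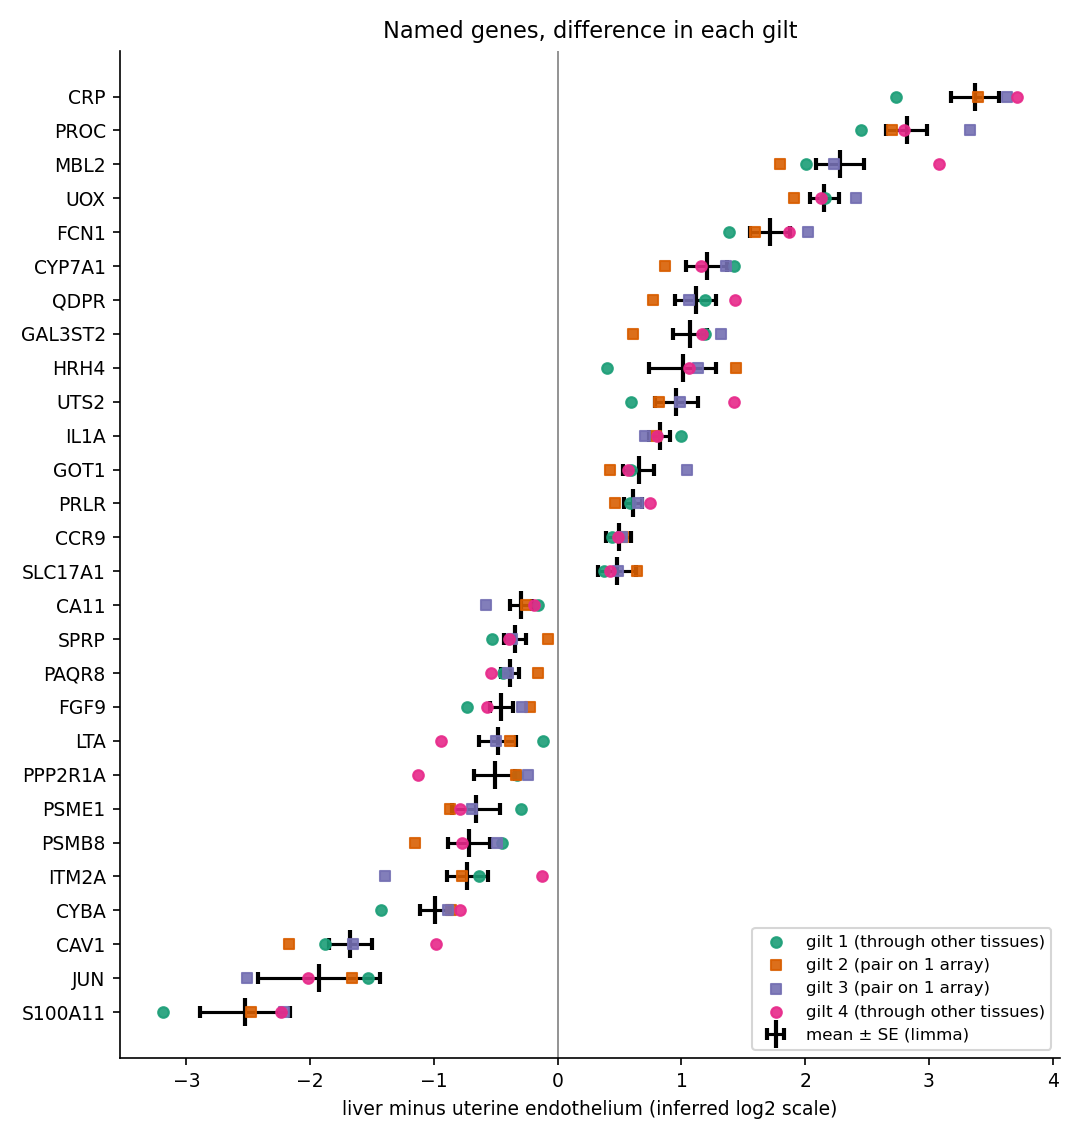
Liver minus uterine endothelium in each of the 4 gilts for the 28 genes with the largest called differences of one sign in every gilt (15 higher and 13 lower in liver), on the inferred log2 scale. Circles are the gilts whose pair was linked through other tissues, squares those with the pair on 1 array, and black marks the limma mean ± SE. CRP lies furthest to the right with 2.73 to 3.71 in the 4 gilts, and S100A11 furthest to the left with -3.19 to -2.21.

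Further genes higher in liver encode signalling peptides and receptors. UTS2, the gene of the vasoactive peptide urotensin 2, had tissue values of 0.31, 0.59, 0.63 and 0.58 in liver, against -0.28, -0.23, -0.36 and -0.85 in uterine endothelium. Its difference was 0.96 ± 0.17 (SE, n = 4; limma adjusted p = 0.0021). HRH4, a histamine receptor, differed by 0.40 in gilt 1 and by 1.06 to 1.44 in the other 3 gilts, with a mean of 1.01 ± 0.27 (SE; limma adjusted p = 0.019). The call was not held without gilt 2 (0.86, limma adjusted p = 0.141) or without gilt 3 (0.97, adjusted p = 0.062). The row of HRH4 follows that of IL1A in the deposited table, where the difference was 0.83, and the part of that neighbour in the HRH4 value was not tested.

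IL1A, the gene of the inflammatory cytokine interleukin 1 alpha, had tissue values of 0.88, 0.94, 0.86 and 0.81 in liver, against -0.12, 0.14, 0.15 and 0.01 in uterine endothelium. The 4 differences lay close together, between 0.70 and 1.00, with a mean of 0.83 ± 0.09 (SE; limma adjusted p = 3.5e-05). Its level relative to skeletal muscle and brain stem was 1.33 in liver and 0.50 in uterine endothelium.

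CCR9, a chemokine receptor of lymphocytes, had tissue values of 0.05 to 0.21 in liver, against -0.44 to -0.31 in uterine endothelium. Its difference of 0.49 ± 0.10 (SE; limma adjusted p = 0.0040) had a liver level near that of skeletal muscle and brain stem (-0.03) and a uterine level below them (-0.52). SLC17A1, a sodium phosphate cotransporter, stood at 0.02 in liver and -0.46 in uterine endothelium relative to the same tissues. Its difference was 0.48 ± 0.15 (SE; limma adjusted p = 0.039), and leaving out gilt 1, 2 or 3 gave adjusted p-values of 0.093, 0.192 and 0.123.

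The genes lower in liver were led by S100A11, which encodes a calcium-binding S100 protein. Its tissue values were -0.92, -0.75, -0.47 and -0.34 in liver, against 2.27, 1.73, 1.74 and 1.89 in uterine endothelium. Liver lay below the gilt mean and uterine endothelium well above it in all 4 gilts, and the difference was -2.53 ± 0.36 (SE, n = 4; 95% interval -3.33 to -1.73; limma adjusted p = 0.00042). The liver level did not stand apart from the mean of skeletal muscle and brain stem (0.02, limma adjusted p = 0.97), while the uterine level was 2.55 above it (limma adjusted p = 0.00016).

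CAV1 encodes caveolin 1, the coat protein of caveolae, which are abundant in endothelium, smooth muscle and fat cells. Its tissue values were -0.64, -0.77, -0.55 and -0.39 in liver, against 1.24, 1.41, 1.11 and 0.59 in uterine endothelium. Gilt 4 had the smallest difference, -0.98, and gilt 2 the largest, -2.18, with a mean of -1.67 ± 0.17 (SE, n = 4; limma adjusted p = 3.1e-05). CAV1 was the only one of 35 listed endothelial markers among the genes with a symbol. Markers that define endothelium, such as PECAM1, CDH5 and VWF, were not among them, so the label of the uterine tissue could not be checked against its own cell type. MADCAM1, an adhesion molecule of venules that was not on the list, went the other way. It was called higher in liver, by 0.18 to 0.41 in the 4 gilts, and kept the call under 8 of 13 alternative analyses.

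CYBA, a membrane subunit of the superoxide-producing NADPH oxidase of phagocytes, had tissue values of -0.40, -0.12, -0.06 and -0.15 in liver, against 1.03, 0.75, 0.83 and 0.63 in uterine endothelium. Its difference was -0.99 ± 0.12 (SE; limma adjusted p = 9.8e-05), and gilt 1 with -1.43 stood apart from the other 3. ITM2A, a small membrane protein known from cartilage, muscle and T cells, differed by -0.63, -0.77, -1.39 and -0.13 in gilts 1 to 4. Its mean of -0.73 ± 0.17 (SE; limma adjusted p = 0.0078) had adjusted p-values of 0.061 without gilt 2 and 0.058 without gilt 3.

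Of 31 listed genes of the immunoproteasome and antigen presentation, 2 were measured and both were lower in liver, beside 11.8% of all rows. With 2 members the count says little about the list. PSMB8, a catalytic subunit of the immunoproteasome, had tissue values of 0.06, -0.26, 0.19 and 0.14 in liver, against 0.51, 0.90, 0.68 and 0.91 in uterine endothelium. Its difference was -0.72 ± 0.17 (SE, n = 4; limma adjusted p = 0.0099), and -0.57 without gilt 2 (adjusted p = 0.078).

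PSME1, a subunit of the proteasome activator induced by interferon gamma, had tissue values of 0.60, 0.28, 0.53 and 0.57 in liver, against 0.90, 1.15, 1.23 and 1.35 in uterine endothelium. Both tissues lay above the gilt mean, and the difference was -0.66 ± 0.19 (SE; limma adjusted p = 0.028). Leaving out gilt 1, 2 or 3 gave adjusted p-values of 0.056, 0.064 and 0.149. Relative to skeletal muscle and brain stem, PSME1 stood at 1.32 in liver and 1.99 in uterine endothelium, and PSMB8 at 0.42 in liver and 1.14 in uterine endothelium.

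JUN, a subunit of the AP-1 transcription factor that is induced within minutes of stimulation, had tissue values of -1.21, -1.27, -1.35 and -0.38 in liver, against 0.32, 0.39, 1.16 and 1.64 in uterine endothelium. Relative to the mean of its own tissues, gilt 4 had the highest value in both liver and uterine endothelium. The difference was -1.93 ± 0.49 (SE, n = 4, 95% interval -3.01 to -0.85, limma adjusted p = 0.015). This SE draws on the scatter of all tissues, and from the 4 differences alone it was 0.17 (limma adjusted p = 0.0018). In the main fit the adjusted p was 0.061 without gilt 2 and 0.105 without gilt 3. KLF4, the other immediate early gene measured, had a difference of -0.24 (95% interval -0.44 to -0.03; limma adjusted p = 0.090), with -0.59 in gilt 3 and -0.17 to -0.09 in the other 3 gilts.

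The remaining genes lower in liver had smaller differences. PPP2R1A, a scaffold subunit of protein phosphatase 2A, averaged -0.51 ± 0.16 (SE; limma adjusted p = 0.044), with -1.13 in gilt 4 and -0.34 to -0.24 in the others. Leaving out gilt 1, 2 or 3 gave adjusted p-values of 0.105, 0.115 and 0.075. CA11, a carbonic anhydrase-related protein, averaged -0.30 ± 0.09 (SE; limma adjusted p = 0.027), with adjusted p-values of 0.103, 0.104 and 0.070 without gilt 2, 3 or 4. SPRP averaged -0.34 ± 0.09 (SE; limma adjusted p = 0.014), with 0.058, 0.086 and 0.076 without gilt 1, 3 or 4.

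**Figure D2:**
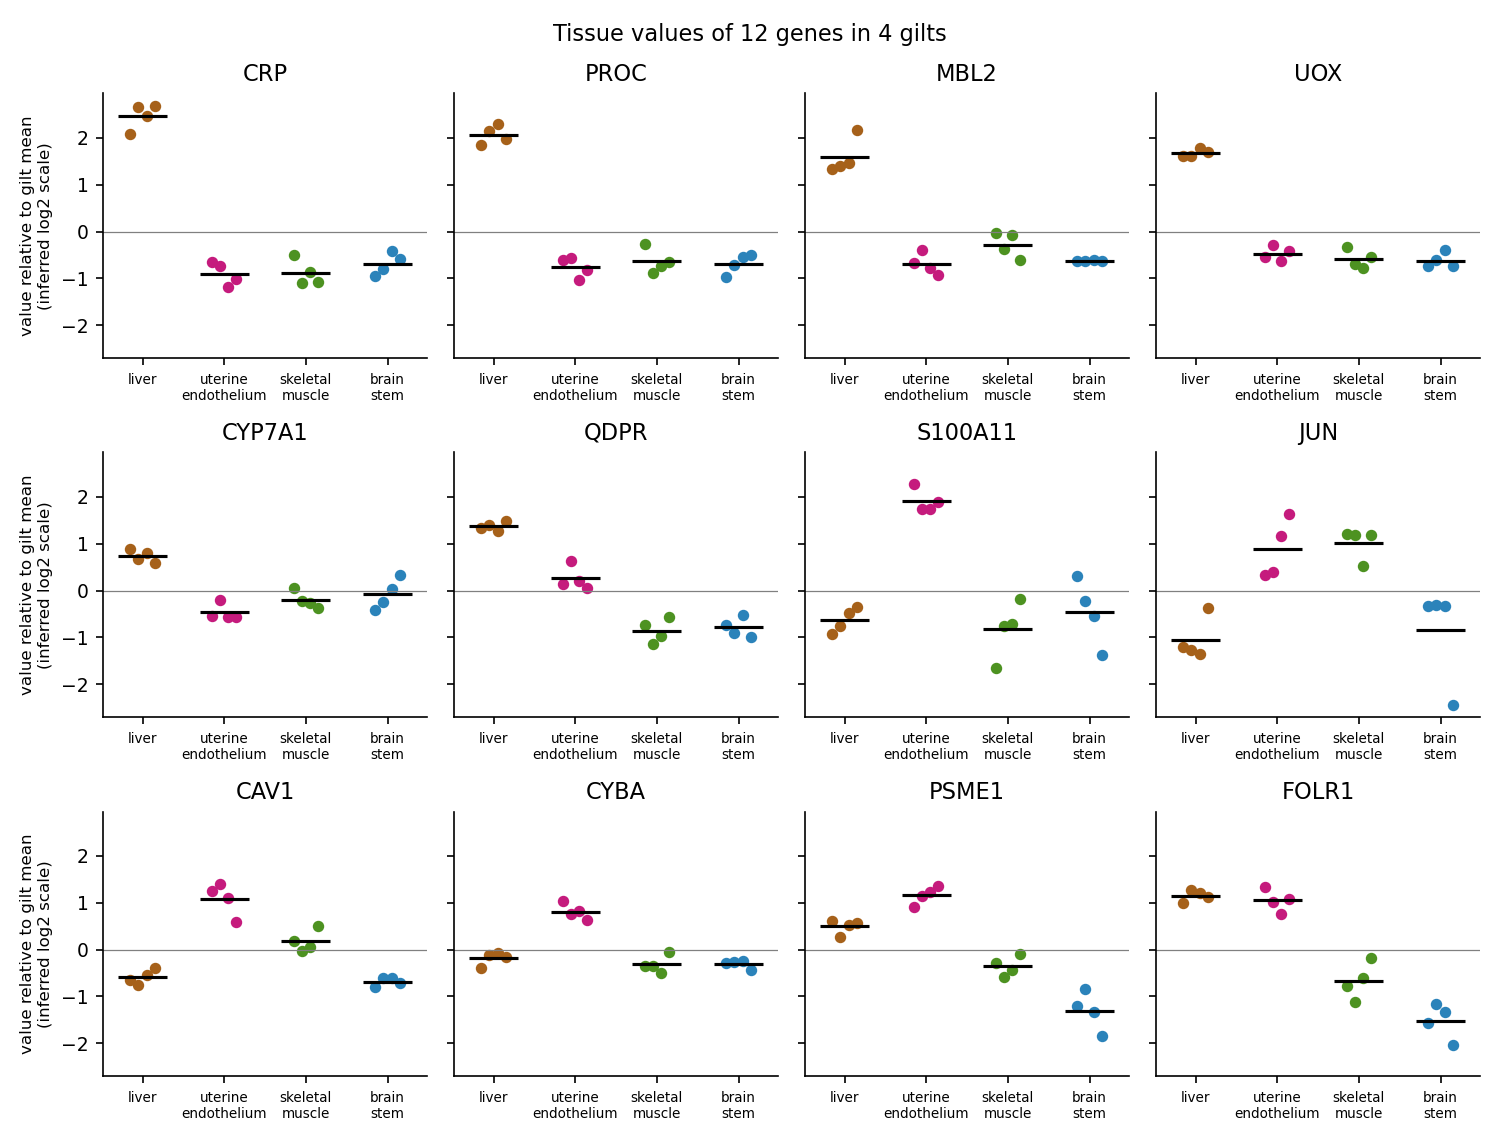
Tissue values of 12 genes in liver, uterine endothelium, skeletal muscle and brain stem of each of the 4 gilts (points, with the mean as a bar), in inferred log2 units, with 0 at the average of the gilt. Liver and uterine values do not overlap for 11 of the genes, beside 33.6% of all rows. These 11 were picked from genes called with one sign in every gilt, so their count is not a separate result. For FOLR1 the values overlap at 1.00 to 1.28 in liver and 0.75 to 1.34 in uterine endothelium.

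Of 44 listed genes of the endometrial epithelium and of uterine steroid, oxytocin and prostaglandin signalling, 7 were measured. Of these, 2 were higher in liver, 2 were lower and 3 were not called, with a median difference of 0.10 beside -0.01 over all rows. The shares called over all rows were 12.1% higher and 11.8% lower. Among the hormone receptors on the list, that for prolactin (PRLR) and the oestrogen receptor beta (ESR2) were higher in liver. A membrane progesterone receptor (PAQR8) was lower, and the oxytocin receptor (OXTR) was not called. The other listed oestrogen receptor, ESR1, and the progesterone receptor PGR were not among the genes with a symbol.

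PRLR, the prolactin receptor, had tissue values of 0.45, 0.38, 0.50 and 0.56 in liver, against -0.13, -0.08, -0.14 and -0.19 in uterine endothelium. Every liver value exceeded every uterine value, with a difference of 0.61 ± 0.07 (SE, n = 4; limma adjusted p = 8.3e-05). ESR2, the oestrogen receptor beta, had tissue values of 0.21, 0.20, 0.12 and 0.13 in liver, against -0.29, -0.24, -0.27 and -0.23 in uterine endothelium. The difference was small but even across gilts, 0.43 ± 0.05 (SE; limma adjusted p = 7.7e-05), or 1.34-fold. ESR2 stood at 0.12 in liver and -0.30 in uterine endothelium relative to skeletal muscle and brain stem.

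PAQR8, a membrane progesterone receptor, had tissue values of -0.12, -0.04, -0.12 and -0.18 in liver, against 0.33, 0.12, 0.28 and 0.35 in uterine endothelium. Its difference was -0.38 ± 0.07 (SE; limma adjusted p = 0.0022). FGF9, a fibroblast growth factor made in the uterine stroma and lining of several mammals, had tissue values of -0.17 to -0.04 in liver, against 0.18 to 0.57 in uterine endothelium. The groups did not overlap, and the difference was -0.45 ± 0.09 (SE; limma adjusted p = 0.0049). OXTR, the oxytocin receptor, had a difference of 0.15 (95% interval -0.03 to 0.34), and LIF, a cytokine needed for implantation in mice, one of 0.09 (95% interval -0.04 to 0.22).

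FOLR1, a folate receptor, stood out on the same list for being high in both tissues. Its tissue values were 1.00, 1.28, 1.20 and 1.12 in liver, against 1.34, 1.01, 0.75 and 1.09 in uterine endothelium. The ranges overlapped, and the difference of 0.10 had a 95% interval of -0.39 to 0.59. Relative to the mean of skeletal muscle and brain stem, FOLR1 was 2.25 higher in liver (limma adjusted p = 4.3e-06) and 2.15 higher in uterine endothelium (limma adjusted p = 2.4e-05); these contrasts share the muscle and brain stem samples.

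Separate lists cover immune cells and their signals, and their called shares are to be read beside the 24.0% called over all rows. Of 81 listed leukocyte genes 8 were measured, of which CCR9, CD4 and IL12RB2 were higher in liver, CYBA was lower and 4 were not called, with a median difference of 0.01. CD4, a co-receptor of helper T cells, had a difference of 0.27 ± 0.08 (SE; limma adjusted p = 0.030), whose adjusted p lay between 0.058 and 0.122 when any 1 gilt was left out. IL12RB2, an interleukin 12 receptor subunit, had a difference of 0.25 ± 0.07 (SE; limma adjusted p = 0.023), with 0.096, 0.059 and 0.101 without gilt 1, 2 or 3.

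Of 54 listed cytokines, chemokines and interferons 8 were measured. IL1A was higher in liver, LTA was lower and 6 were not called, with a median difference of -0.06. LTA, the gene of lymphotoxin alpha, differed by -0.12, -0.38, -0.50 and -0.95 in gilts 1 to 4, with a mean of -0.49 ± 0.15 (SE; limma adjusted p = 0.032). Its adjusted p was 0.074, 0.129 and 0.194 without gilt 2, 3 or 4. The row of LTA follows that of PSMB8 in the deposited table, and the part of that neighbour in its value was not tested. An interferon delta gene, IFN-DELTA-1, had a difference of -0.71 (95% interval -1.32 to -0.09; limma adjusted p = 0.093), with -1.53 in gilt 1 and -0.68 to -0.22 in the others.

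On the list of antimicrobial peptides and soluble pattern recognition, 8 of 26 genes were measured and 3 were higher in liver, namely CRP, MBL2 and FCN1, which are also on the plasma protein list. The other 5, PGLYRP2 and 4 others that include the cathelicidin PR39 and the beta-defensin DEFB1, had differences between 0.00 and 0.06 and were not called.

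Lists of markers of other tissues were counted too, again beside the 24.0% of all rows called. None of the 3 skeletal muscle markers measured was called, with a median difference of -0.01. On the brain stem list 9 genes were measured and 8 were not called, with a median difference of 0.13. The 1 called was the histamine receptor gene HRH4, whose call is not read as a brain stem signal. Of the 13 genes of testis, mammary gland, retina, cartilage, placenta and pituitary 1 was called, the follicle-stimulating hormone receptor gene FSHR with 0.37 ± 0.08 (SE; limma adjusted p = 0.0080; 0.081 without gilt 3), and the median was 0.02.

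Blood and platelet genes were represented by 2 of 15 listed. Over all rows 24.0% were called and 12.1% were called higher. Single calls on this list and the mitochondrial one say little about either list. ITGA2B, the platelet integrin alpha IIb, was higher in liver by 0.29 ± 0.06 (SE; limma adjusted p = 0.0035), while the embryonic globin gene HBE1 had a difference of 0.01 (95% interval -0.16 to 0.17). Of 3 mitochondrial protein genes, ACADS was higher in liver. TSPO, a cholesterol-binding protein of the outer mitochondrial membrane, had a difference of 0.79 with an interval that spans zero (95% interval -0.16 to 1.73), since it was 1.52, 1.88, 1.03 and 1.29 in liver, against 1.80, 0.08, 0.57 and 0.12 in uterine endothelium. Gilt 1 alone had a uterine value above its liver value. No gene of the 34 liver nuclear receptors, transcription factors and transporters listed was among the genes with a symbol.

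**Figure D3:**
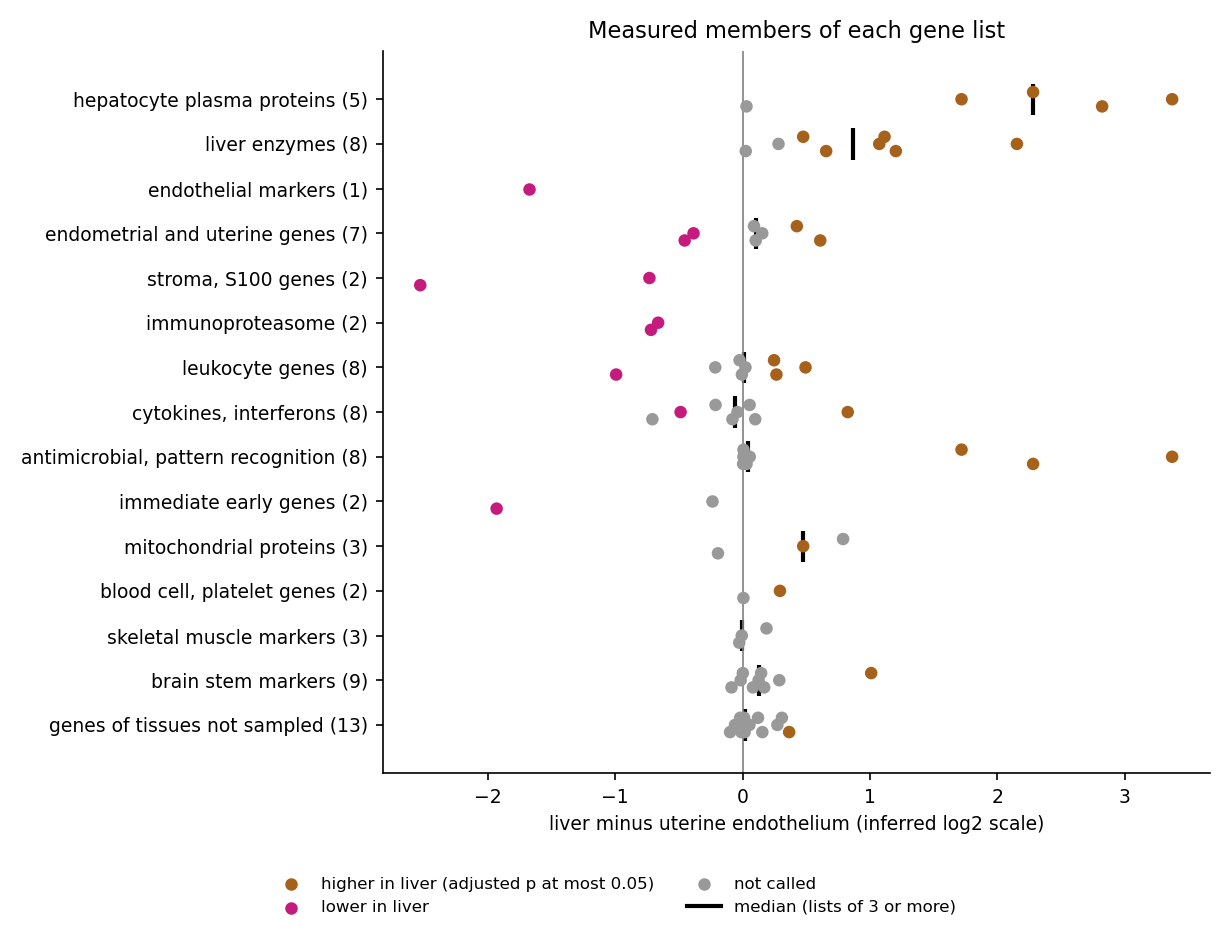
Difference between liver and uterine endothelium for each measured member of 15 gene lists, with the number measured in brackets, on the inferred log2 scale. Brown points are genes called higher in liver, magenta points genes called lower, grey points genes not called, and black bars medians. The plasma protein list has a median of 2.28 and the liver enzyme list one of 0.86, and the other lists with 3 or more members have medians between -0.06 and 0.48.

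The arrays that hybridised the pair directly can be set beside the path through the other tissues of the same gilt. In each of gilts 2 and 3 the difference weights the direct array by 0.75 and the path by 0.25. For the 28 genes shown in the plot by gilt, the direct array and the path had the same sign in 28 of 28 cases in gilt 2 and in gilt 3, although these genes were chosen for having one sign in every gilt. The median gap between the direct value and the path was 0.46 in gilt 2 and 0.50 in gilt 3. CRP read 3.38 on the direct array and 3.48 by the path in gilt 2, and 3.79 and 3.17 in gilt 3.

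Some genes were less even. QDPR had the widest gap of gilt 2, with 0.47 on the direct array and 1.69 by the path. IL1A had that of gilt 3, with 0.33 on the direct array and 1.83 by the path, and in gilt 2 it read 1.02 on the direct array and 0.12 by the path. The 4 differences of IL1A thus lay closer together than the array values behind them.

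The direct arrays also differed from each other. Of the 15 genes higher in liver, 12 had the larger value on the gilt 3 array, where liver carried Cy5, and the median was 1.20 there and 0.89 on the gilt 2 array, where liver carried Cy3. PROC read 3.57 on the gilt 3 array and 2.41 on the gilt 2 array, and UOX read 2.68 and 1.69. Of the 13 genes lower in liver, 6 were larger in size on the gilt 3 array, with medians of -0.45 there and -0.65 on the gilt 2 array. From these direct arrays alone, gilt and dye orientation cannot be told apart, with 1 array of each. In every loop each tissue carried Cy3 on 1 array and Cy5 on 1 array. A dye effect that is equal on all arrays of a loop therefore cancels from the solved differences.

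**Figure D4:**
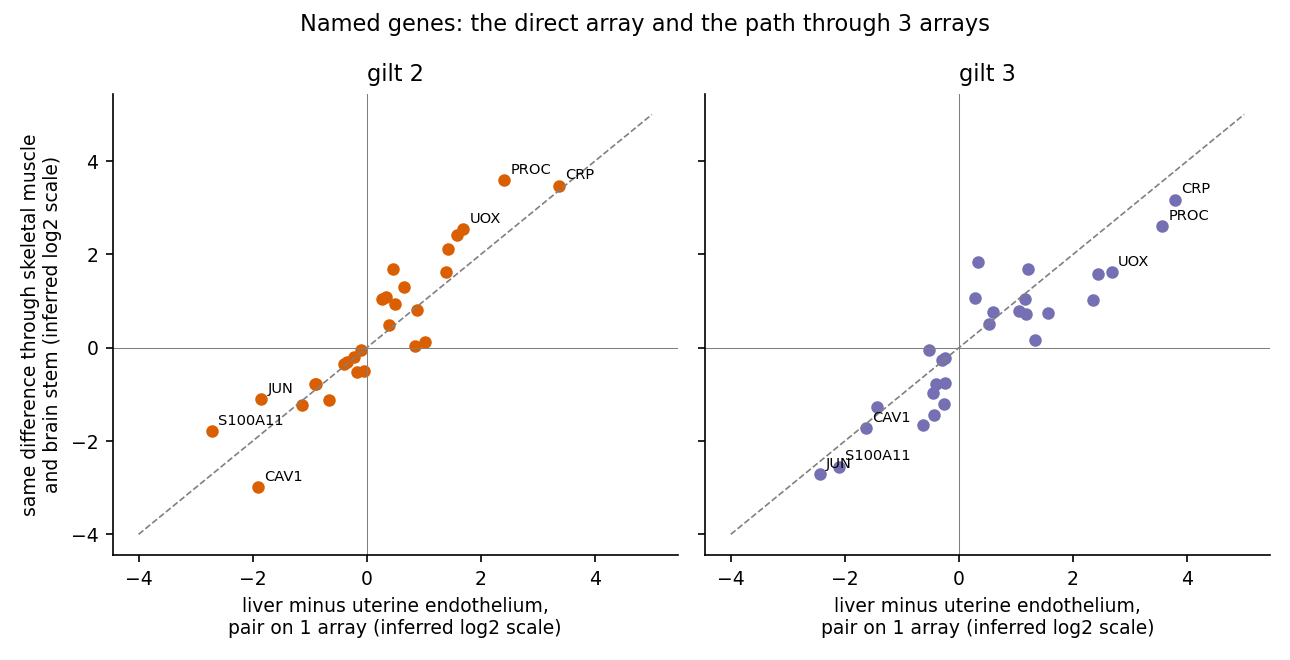
Liver minus uterine endothelium on the direct array (horizontal axis) against the path through the other tissues (vertical axis) for the 28 genes in gilts 2 and 3, on the inferred log2 scale, with a dashed line of equal values. All points lie in the quadrants of equal sign, and IL1A of gilt 3 lies furthest from the line with 0.33 on the direct array and 1.83 by the path.

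Across all 20736 rows, the differences of any pair of gilts correlated with Pearson's r between 0.75 (gilts 1 and 4) and 0.86 (gilts 2 and 3). Gilts 1 and 4 are those without a direct array, and the rows of a gilt share its arrays, so these values are descriptions only. Of the 6 pairs of tissues, liver and uterine endothelium had the fewest rows called at a limma adjusted p of at most 0.05, 4969, against 5408 for liver and skeletal muscle and 5475 for uterine endothelium and skeletal muscle. The 3 pairs with brain stem had 7796 to 8662. The pairs share samples, and no test was made between their counts. Over all rows, the root mean square difference of liver and uterine endothelium was 0.63, 0.61, 0.68 and 0.62 in gilts 1 to 4. That of uterine endothelium and skeletal muscle was lower in each gilt, at 0.58, 0.56, 0.58 and 0.52. Liver and uterine endothelium shared an array in gilts 2 and 3. Skeletal muscle shared one with liver in gilts 1, 2 and 4, and with uterine endothelium in gilts 1, 3 and 4. The part of this in the counts was not tested.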

How the data were processed

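The authors deposited 1 log ratio per row and array for 16 two-colour arrays, and the sources used here name no scanner, normalization or filter. The deposited values were taken as log2 of Cy5 over Cy3; neither base nor sign is stated. Gene symbols came from the platform annotation paired with the value table, which names 1 gene for each of 178 rows, none for the other 20558 and several for none; all 178 gene identifiers matched RefSeq's gene table of Sscrofa11.1, used for names only. No value was missing and none was filtered.

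Least squares turned each gilt's 4 arrays into tissue values. The values of all 4 tissues entered the fit and shared 1 estimate of the spread. The difference, liver minus uterine endothelium, was tested in R 4.3.3 by limma 3.58.1 (9 residual degrees of freedom), which fitted a term for each gilt as the block, with Benjamini-Hochberg adjustment over all 20736 rows. Array and tissue labels tie each loop to 1 animal, so the gilts are paired by animal. The gene ASIP has 4 probes, whose mean was used. On simulated data of 20736 rows, the fit recovered 52% of 100 rows changed by 0.5 and 87% of 100 changed by 1, and 7.33% of its calls were false. Only these rows were changed, in liver alone, with independent noise for each array. In the real data 24.0% of rows were called, so the simulated rates need not hold there. The genes named were, in each direction, up to 15 with the largest called difference and one sign in all 4 gilts, plus members of the gene lists. The genes, lists and rules were chosen with earlier results of these data known. The alternatives left out each gilt and changed the block, dye term, scaling, centring, row filters, arrays used, robust fitting and sign. Gilts are separate animals, and their number limits the precision. No sequence or genome position was used.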

Additional observations from a re-analysis of the deposited data

Results flagged for a closer look

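In 7 of 95 genes that were called or belong to a gene list, the difference of 1 gilt lay far from those of the other 3, beyond Dixon's 95% criterion; chance gives this in about 1 of 20 genes. CYBA was -1.43 in gilt 1 with the other 3 gilts at -0.89 to -0.79, and PPP2R1A was -1.13 in gilt 4 with the other 3 at -0.34 to -0.24. Both were lower in liver in every gilt. CYP21A2, a steroid hydroxylase, was 0.56 in gilt 3 with the rest at 0.28 to 0.31, and MADCAM1, an adhesion molecule of venules in mucosa, was 0.41 in gilt 4 with the rest at 0.18 to 0.21. KLF4 was -0.59 in gilt 3 with the rest at -0.17 to -0.09. The slow myosin gene MYH7 was -0.11 in gilt 2 with the rest at 0.27 to 0.30, and GAD2, a glutamate decarboxylase of neurons, was 0.24 in gilt 2 with the rest at 0.01 to 0.04. KLF4, MYH7 and GAD2 were not called between liver and uterine endothelium.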

How the results depend on the processing

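None of the 623 values of the 48 called genes under the alternatives run was reversed, apart from the turned sign, which negates each by construction; 512 kept the call and 111 lost it. The genes CRP, PROC, MBL2, UOX, FCN1, CYP7A1, S100A11 and CAV1 kept it under all 13 alternatives, and a further 15 lost it only with the 2 direct arrays alone. That setting has the fewest samples: 1401 rows (645 higher in liver, 756 lower) and 11 genes (7 higher, 4 lower) were called, and the list medians became 0.0865 for leukocyte genes, 0.20 for antimicrobial genes, 0.0772 for skeletal muscle markers and 0.26 for genes of tissues not sampled. With the sign turned, 13 genes would be higher and 35 lower. Leaving out 1 gilt at a time gave 2785 to 3978 rows (1576 to 2101 higher, 1209 to 1941 lower) and 26 to 42 genes (20 to 32 higher, 6 to 10 lower), lowest without gilt 3; the median of skeletal muscle markers ranged from -0.0364 (without gilt 2) to 0.0197 (without gilt 1). Without a replicate block and with a dye term, 6042 rows and 52 genes were called, and with gilt as a random block 5420 rows and 50 genes (consensus correlation -0.13). The scaled arrays gave 51 genes, centring on the most frequent value 47, the 4 differences alone 38, robust fitting 48, leaving out rows of small SD 48 and leaving out rows after a strong row 47. Of the 48 called genes, LTA lost its call with scaled arrays, and 10 (ITM2A, PPP2R1A, LTA, CA11, DIO3, HCRT, MADCAM1, NPPA, SCGB1D1 and SLC22A2) with the 4 differences alone. HCRT also lost it with the random block, the most frequent value as centre and rows of small SD left out; the cause was not tested. The 4 ASIP probes lay between -0.14 and 0.17 and none was called. Without intensities, what signal over background limits cannot be given.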

Other observations

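A further 20 called genes lie outside the 28 named by size; all are higher in liver because the 28 already hold each called gene that was lower. Those not on a gene list are named here after their values were seen. DIO2 and DIO3, deiodinases that activate and inactivate thyroid hormone, had differences of 0.40 ± 0.11 and 0.27 ± 0.06 (SE, n = 4; limma adjusted p = 0.018 and 0.010), and CYP21A2 had one of 0.36 ± 0.08 (limma adjusted p = 0.0081). The adjusted p of DIO2 was 0.056 without gilt 2 and 0.101 without gilt 3, that of DIO3 was 0.058 to 0.068 without gilt 2, 3 or 4, and that of CYP21A2 was 0.059 without gilt 3. GATA6, a zinc-finger transcription factor, had tissue values of 0.19, 0.24, 0.26 and 0.28 in liver, against -0.12, -0.11, -0.21 and -0.08 in uterine endothelium. Its difference was 0.37 ± 0.06 (SE; limma adjusted p = 0.0013).

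OCA2, a melanosome protein, was higher in liver by 0.47 ± 0.07 (SE; limma adjusted p = 0.00061), with 0.62, 0.63, 0.32 and 0.29 in gilts 1 to 4. TNFSF8, a cytokine of the tumour necrosis factor family, was higher by 0.35 ± 0.06 (SE; limma adjusted p = 0.0015), with 0.33 to 0.41 in the 4 gilts. HCRT, the orexin precursor gene, was the called gene without one sign in all gilts, with 0.23, 0.39, 0.35 and -0.02; its mean was 0.24 ± 0.08 (limma adjusted p = 0.045; 0.112, 0.191 and 0.241 without gilt 1, 2 or 3), and it kept the call under 5 of 13 alternatives.

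KCNN4, a potassium channel, had a difference of 0.25 ± 0.06 (SE; limma adjusted p = 0.015; 0.082, 0.053 and 0.093 without gilt 2, 3 or 4), and its row follows that of PROC, whose difference was 2.82. LMCD1, whose row follows that of S100A11 at -2.53, had a difference of -0.01 (95% interval -0.19 to 0.18). The part of neighbouring rows was not tested. SRY, a Y-linked gene that female pigs lack, had a difference of 0.00 (95% interval -0.12 to 0.13), with tissue values of -0.11 to 0.00 in liver and -0.13 to 0.04 in uterine endothelium. GNAS, a G protein subunit gene, had tissue values of 0.78, 0.25, 0.34 and 0.47 in liver, against 0.37, 0.87, 1.26 and 1.14 in uterine endothelium; gilt 1 went the other way from gilts 2 to 4, and the difference of -0.45 had a 95% interval of -1.03 to 0.13.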
